A study of Mus musculus with 24 samples.

Results

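The genes that carry the light response of cone photoreceptors were followed in 24 mouse retinas after blast-mediated traumatic brain injury (bTBI). They were taken as a named list of 10 genes, namely the opsins Opn1sw and Opn1mw, the transducin subunits Gnat2, Gnb3 and Gngt2, the phosphodiesterase subunits Pde6c and Pde6h, the channel subunits Cnga3 and Cngb3, and the arrestin Arr3. All 10 were present among the 14922 genes measured at 1 week (8 days in the sample labels) and among the 15920 genes measured at 5 weeks. Retinas came from adult male C57BL/6J mice, and each timepoint had 6 bTBI retinas, from mice that received a blast of overpressure inside a closed chamber, and 6 sham retinas, from mice handled alike without the blast. Each retina was from the eye that faced the wave directly, and according to the series description each timepoint used 12 mice. The extraction kit was RNeasy Plus Mini for the 1-week retinas and RNeasy Mini for the 5-week retinas, so kit and timepoint cannot be told apart. The question was whether the lower Arr3 level at 1 week was shared by the other cone genes.

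Cones serve daylight and color vision, and in the mouse they are a small minority of photoreceptors beside the rods. A cone opsin that absorbs light activates transducin, transducin releases the inhibitor of phosphodiesterase 6, the enzyme lowers cGMP, and the cGMP-gated channel closes. Arrestin then binds the phosphorylated opsin and ends its signal. Mouse cones mostly hold both opsins in amounts that change from the dorsal to the ventral retina.

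At 1 week, Arr3 stood apart from the other cone genes. Its mean in bTBI retinas was 74.3% of the sham mean, with a difference of -0.42 in log2(CPM + 1) (95% interval -0.598 to -0.241) and an adjusted p of 0.00601 in limma, which is past 0.05 but not past the study's threshold of 0.005. The means of the 9 other genes lay between 88.4% and 109% of sham, and all 9 intervals included 0. Their estimates were below 0 for 7 of the 9, and no test was made of Arr3 against each of them. At 5 weeks Arr3 was at 100.1% of sham, and no cone gene passed either threshold.

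Counts over the list were read against all genes. By limma at 0.005, 0 of 10 cone genes were called at 1 week, where 2.25% of all genes were called. At 0.05, 1 of 10 was called lower (Arr3) and none higher, against 3.06% of all genes called lower and 6.08% called in either direction. The same gene alone had an unadjusted p under 0.05 (17.3% of all genes did), DESeq2 called 1 cone gene lower at 0.005 (2.27% of all genes were), and edgeR called 0 (0.925% of all genes were called lower). For 8 of the 10 genes the log2 difference was below 0, as it was for 50.1% of all genes, and the median was -0.13, beside -0.00024 for all genes. In no cone gene were the bTBI and sham retinas at 1 week fully separate, whereas they were in 3.85% of all genes.

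The tissue label reads retina, although a further label names retinal ganglion cells. Gnat1, the rod transducin alpha subunit, averaged 7405 CPM per kilobase of exon in the sham retinas at 1 week, where the highest cone gene averaged 184, so the samples held photoreceptor RNA and were not ganglion cells alone. Assigned reads, inferred from the values, were between 14301989 and 25158638 per retina. In whole tissue, fewer cones and less RNA per cone cannot be told apart. By limma at 0.005, 9 of 10 ganglion cell markers were lower at 1 week and 8 of 10 microglial markers were higher. Of all genes, 2.25% were called in either direction. The microglial markers had a median level of 4.62 in bTBI and 3.46 in sham retinas (mean log2(CPM + 1) over the 10 genes). Every bTBI retina was above the highest sham retina at 3.80. Lens genes were high in bTBI retinas 5 and 6 at 1 week, at 7.26 and 7.06 on the same scale over 13 genes, and between 0.67 and 4.72 in the other 10 retinas. Without those retinas the Arr3 difference at 1 week was -0.47 (adjusted p = 0.00978, limma). The part of microglial RNA in the result was not tested.

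**Figure D1:**
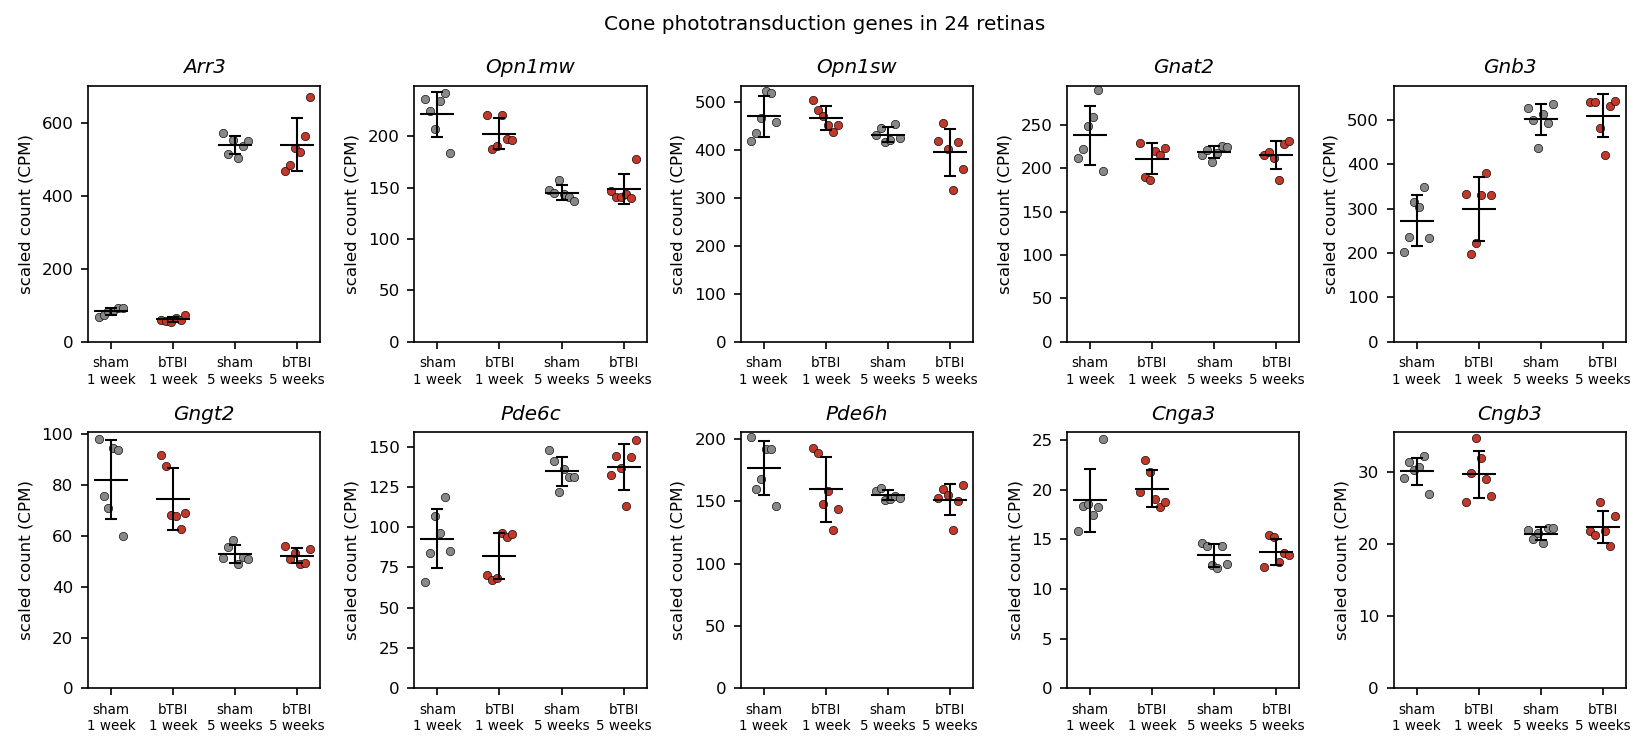
Level of each cone gene (scaled count, CPM, linear axes from 0) in the 4 groups, with 1 point per retina and the mean ± SD (n = 6 retinas per group) in black. At 1 week the 6 bTBI retinas have 54.3 to 73.0 CPM of Arr3 and the sham retinas 68.2 to 93.6 CPM, while the groups of every other gene overlap widely.

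Arr3 (ENSMUSG00000060890, cone arrestin) lies on GRCm38 chrX:100605497-100618493, forward strand, and is protein coding. In the sham retinas at 1 week, replicates 1 to 6 had 68.2, 73.9, 85.6, 84.9, 93.6 and 93.3 CPM, or 83.2 ± 10.3 (SD, n = 6). The bTBI retinas had 60.4, 57.6, 54.3, 65.6, 60.1 and 73.0 CPM, or 61.8 ± 6.59 (SD, n = 6). In 5 of 6 bTBI retinas the level was under the lowest sham value, and the groups overlapped only because bTBI retina 6 was above sham retina 1. The list was drawn up with the lower Arr3 level at 1 week known, so its p-values describe that difference and are not independent evidence of it. Whether Arr3 passed 0.005 depended on the scaling, the fit and single retinas. With all retinas kept, its adjusted p was 0.00364 after scaling to library totals and 9.54e-05 by DESeq2. In the limma fit, without sham retina 1 the difference was -0.47 (adjusted p = 0.00211), and without bTBI retina 6 it was -0.47 (adjusted p = 0.00340), whereas any of the other 10 omissions left it above 0.005 and all 12 left it under 0.05.

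At 5 weeks the sham retinas had 504 to 573 CPM of Arr3 (538 ± 25.2, SD, n = 6) and the bTBI retinas 466 to 670 CPM (539 ± 72.6, SD, n = 6). The groups had the same center, and the bTBI retinas were spread on both sides of the sham range. The log2 difference was -0.0068 (95% interval -0.132 to 0.119, adjusted p = 0.986 in limma), so a difference as large as that at 1 week lay outside the interval. The bTBI effect on Arr3 differed between the timepoints by 0.41 in log2(CPM + 1) (95% interval 0.183 to 0.643), with an unadjusted p of 0.0010 and an adjusted p of 0.0909 over the 14455 genes in both tables (limma interaction), which did not pass either threshold. Of all genes, 0.104% passed at 0.005 for this difference and 0.768% at 0.05. Among the cone genes 0 passed at 0.005 by limma, edgeR (0.104% of all genes) or DESeq2 (0.394% of all genes), and Arr3 alone had an unadjusted p under 0.05, as 8.5% of all genes did.

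**Figure D2:**
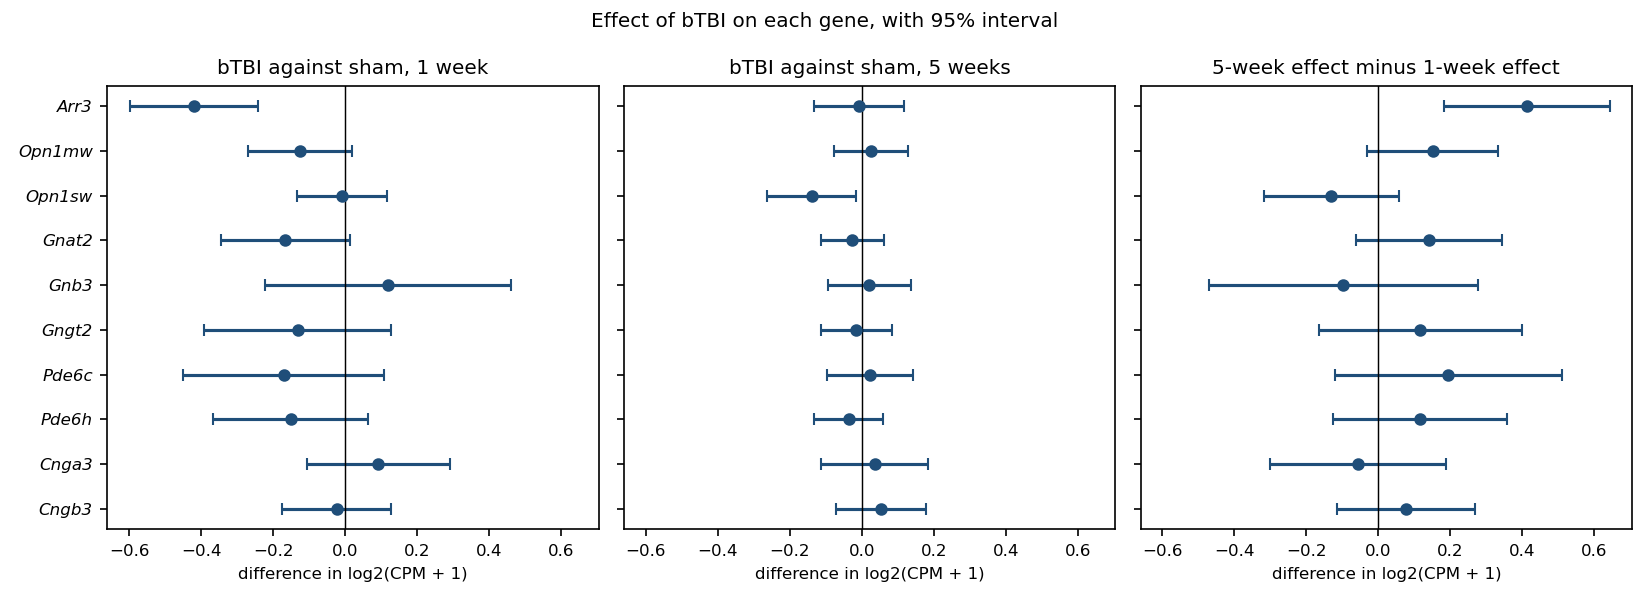
Difference in log2(CPM + 1) between bTBI and sham retinas for each cone gene at 1 week (left) and 5 weeks (middle), and the 5-week difference minus the 1-week difference (right), with limma 95% intervals (n = 6 retinas per group). At 1 week the Arr3 interval (-0.598 to -0.241) is the only one that excludes 0, and at 5 weeks the Opn1sw interval (-0.262 to -0.015) is.

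The upstream windows of Arr3 and both opsins are shown because the results turn on these genes, and because a pair of short motifs of photoreceptor factors were sought there. They are the 250 bases before the start of transcription in RefSeq (build GRCm38.p6), given 5′ to 3′ on the gene's own strand, with motif matches in capitals.
Arr3, chrX:100605247-100605496, forward strand: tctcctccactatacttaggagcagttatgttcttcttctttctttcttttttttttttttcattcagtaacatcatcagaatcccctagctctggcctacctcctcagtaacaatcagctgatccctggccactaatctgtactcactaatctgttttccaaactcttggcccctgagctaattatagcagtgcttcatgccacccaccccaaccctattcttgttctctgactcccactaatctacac
Opn1sw, chr6:29380514-29380763, reverse strand: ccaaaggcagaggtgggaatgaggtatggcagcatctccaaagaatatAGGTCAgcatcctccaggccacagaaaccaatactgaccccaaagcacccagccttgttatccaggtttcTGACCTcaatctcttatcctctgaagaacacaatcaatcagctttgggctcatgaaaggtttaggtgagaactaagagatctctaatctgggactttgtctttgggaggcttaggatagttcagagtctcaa
Opn1mw, chrX:74127216-74127465, forward strand: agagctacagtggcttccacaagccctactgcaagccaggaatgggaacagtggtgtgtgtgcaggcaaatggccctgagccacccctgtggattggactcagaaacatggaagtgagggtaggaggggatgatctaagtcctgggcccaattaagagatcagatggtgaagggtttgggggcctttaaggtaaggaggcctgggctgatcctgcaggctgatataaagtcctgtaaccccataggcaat
The motifs were TAATCC, the core bound by the photoreceptor factor CRX, and AGGTCA, the repeat unit bound by nuclear receptors such as those of thyroid hormone and retinoids. Both strands were searched, and the motifs do not overlap each other. RefSeq promoter entries were at hand for 6 of the 10 genes. AGGTCA was present in the Opn1sw window, on the forward strand starting 202 bases before the start and on the other strand 132 bases before it, and in none of the other 5 genes. It was present in 14.0% of 32851 promoter windows of that length. TAATCC was present only in the Gnat2 window, on the opposite strand 19 bases before the start, and in 6.25% of all windows. The Gnat2 window lies largely in a first exon of the GENCODE annotation and is not printed. The printed Opn1sw window lies inside the GENCODE span of its gene (chr6:29376671-29388468), whose annotated start is farther upstream. The windows of Arr3 and Opn1mw held neither string, which describes these letters in these windows only.

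The Arr3 estimate at 1 week lay outside the intervals of both opsins, and both intervals included 0. Opn1sw, the short-wavelength opsin (ENSMUSG00000058831, chr6:29376671-29388468, reverse strand), had 420, 436, 467, 523, 518 and 459 CPM in sham retinas 1 to 6 and 505, 484, 471, 451, 437 and 453 CPM in bTBI retinas 1 to 6. All bTBI values lay inside the sham range, and the log2 difference was -0.0083 (95% interval -0.134 to 0.117, adjusted p = 0.970 in limma). Its exons share 397 bases with Calu on the other strand, and since the strand setting of the counting is not given in the sources used here, reads of the pair may not be told apart there. Opn1mw, the medium-wavelength opsin (ENSMUSG00000031394, chrX:74127464-74150760, forward strand), had 236, 224, 206, 234, 242 and 184 CPM in sham and 221, 187, 190, 221, 198 and 197 CPM in bTBI retinas. These values also overlapped throughout, with a difference of -0.12 (95% interval -0.269 to 0.020, adjusted p = 0.385). This interval overlapped that of Arr3 (-0.598 to -0.241).

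At 5 weeks Opn1sw was the cone gene with the lowest bTBI value relative to sham. The sham retinas had 431, 445, 417, 422, 455 and 424 CPM, and the bTBI retinas 419, 456, 402, 316, 418 and 361 CPM. In 3 of 6 bTBI retinas the level was below every sham value, with retinas 4 and 6 farthest. The difference was -0.14 (95% interval -0.262 to -0.015), with an unadjusted p of 0.0297 and an adjusted p of 0.364 in limma, which did not pass. Opn1mw had 137 to 157 CPM in sham and 140 to 178 CPM in bTBI retinas, and its highest value was that of bTBI retina 6.

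The ratio of Opn1sw to Opn1mw therefore varied between single retinas at 5 weeks. It was 2.65 to 3.23 in the sham retinas, and in bTBI retinas 1 to 6 it was 2.86, 3.25, 2.84, 2.20, 2.99 and 2.03. Retinas 4 and 6 were below the sham range and the other 4 were within or just above it. At 1 week the ratio was 1.78 to 2.50 in sham and 2.04 to 2.59 in bTBI retinas, so the groups overlapped. Opsin amounts differ along the dorsal to ventral axis, and the 2 genes of smallest p among 6 measured markers of that axis at 5 weeks are given beside it. Over those 6 markers at 5 weeks, 3 had a difference below 0, and the median was 0.0074, beside 0.0012 for all genes. Limma called 1 of them lower at 0.05, where 2.05% of all genes were called, and 0 at 0.005, where 0.835% were. Vax2, a ventral homeobox factor, had 28.7 to 32.1 CPM in sham and 20.9 to 27.1 CPM in bTBI retinas at 5 weeks. The groups were separate, as in 1.98% of all genes, with a difference of -0.24 (SE 0.058, adjusted p = 0.0324 in limma), past 0.05 but not 0.005. bTBI retina 6 had the lowest Vax2 level, while bTBI retina 4 had 26.4 CPM, above bTBI retinas 1 (24.8 CPM) and 5 (25.5 CPM). Tbx5, a dorsal T-box factor, had 3.39 to 4.05 CPM in sham and 3.67 to 6.30 CPM in bTBI retinas, a difference of 0.30 (SE 0.104, adjusted p = 0.214). Its highest level was in bTBI retina 1. At 1 week the differences were 0.077 for Vax2 (adjusted p = 0.684) and -0.30 for Tbx5 (adjusted p = 0.556). Whether the dissected retinas held different shares of dorsal and ventral tissue was not tested.

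Transducin couples the opsins to the enzyme, and its subunits varied between retinas more than between groups. Gnat2, the cone alpha subunit (ENSMUSG00000009108, chr3:108092789-108101432, forward strand), had 212, 222, 248, 259, 289 and 197 CPM in sham and 230, 190, 187, 220, 215 and 223 CPM in bTBI retinas at 1 week. Only bTBI retinas 2 and 3 were under the lowest sham value, and the difference was -0.17 (95% interval -0.345 to 0.013, adjusted p = 0.340 in limma). Gnb3, the beta subunit, which ON bipolar cells also use (ENSMUSG00000023439, chr6:124834240-124840275, reverse strand), had 202 to 348 CPM in sham and 199 to 379 CPM in bTBI retinas. This was the widest spread among the cone genes, with a coefficient of variation of 20.9% in sham and 23.8% in bTBI retinas, and the difference was 0.12 (95% interval -0.223 to 0.460, adjusted p = 0.799). Without the lens-rich bTBI retinas 5 and 6 it was -0.02. Gngt2, the gamma subunit (ENSMUSG00000038811, chr11:95837216-95845734, forward strand), had 60.1 to 98.2 CPM in sham and 62.7 to 92.0 CPM in bTBI retinas, a difference of -0.13 (95% interval -0.391 to 0.129, adjusted p = 0.680), and its exons share 234 bases with Abi3 on the other strand.

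Phosphodiesterase 6 breaks down cGMP in the light. Pde6c, its cone catalytic subunit (ENSMUSG00000024992, chr19:38132781-38183958, forward strand), had 66.1, 84.1, 107, 96.3, 119 and 85.4 CPM in sham and 70.6, 67.4, 68.6, 96.4, 93.8 and 95.8 CPM in bTBI retinas at 1 week. No bTBI value was outside the sham range. Its difference of -0.17 (95% interval -0.451 to 0.109, adjusted p = 0.591 in limma) was the most negative after that of Arr3. Pde6h, the inhibitory subunit (ENSMUSG00000064330, chr6:136923832-136968865, forward strand), had 146 to 201 CPM in sham and 127 to 193 CPM in bTBI retinas, with bTBI retinas 5 and 6 under the sham range and a difference of -0.15 (95% interval -0.367 to 0.065, adjusted p = 0.517). Its exons share 136 bases with Arhgdib on the other strand.

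The channel subunits were the lowest of the list. Cnga3, the pore-forming subunit (ENSMUSG00000026114, chr1:37214434-37263384, forward strand), had 15.8 to 25.1 CPM in sham and 18.3 to 23.0 CPM in bTBI retinas at 1 week, a difference of 0.09 (95% interval -0.106 to 0.292, adjusted p = 0.707 in limma). Cngb3, the modulatory subunit (ENSMUSG00000056494, chr4:19280850-19510623, forward strand), had 26.9 to 32.1 CPM in sham and 25.9 to 34.7 CPM in bTBI retinas, a difference of -0.02 (95% interval -0.175 to 0.127, adjusted p = 0.922). Neither gene separated the groups.

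How far a shared difference could be seen is given by the intervals. The estimate for Arr3, -0.42, lay outside the unadjusted 95% interval of 8 of the 9 other genes and inside that of Pde6c. No estimate of the other 9 lay within the Arr3 interval. That interval overlapped the intervals of Opn1mw, Gnat2, Pde6c, Pde6h and Gngt2. Smaller differences could not be told from 0, since at 1 week the intervals reached, on either side of the estimate, from 0.125 for Opn1sw to 0.342 for Gnb3. No test was made of Arr3 against each other gene.

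The same Arr3 values can be set against the other cone genes within each retina, which restates the Arr3 difference because the mean of the others was similar in both groups. The level of Arr3 minus the mean of the 9 others, both in log2(CPM + 1), was -0.71, -0.61, -0.50, -0.59, -0.54 and -0.21 in sham retinas 1 to 6 at 1 week (-0.53 ± 0.17, SD, n = 6). In bTBI retinas 1 to 6 it was -0.995, -0.94, -0.98, -0.85, -0.90 and -0.64 (-0.88 ± 0.13, SD, n = 6). In 5 of 6 bTBI retinas it was below every sham value, and bTBI retina 6 was above sham retina 1 alone. The mean of the 9 others was 6.77 to 7.11 in sham and 6.77 to 6.94 in bTBI retinas, and these ranges overlapped. At 5 weeks Arr3 minus the others was 2.28 ± 0.066 in sham and 2.28 ± 0.18 in bTBI retinas (SD, n = 6 each).

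**Figure D3:**
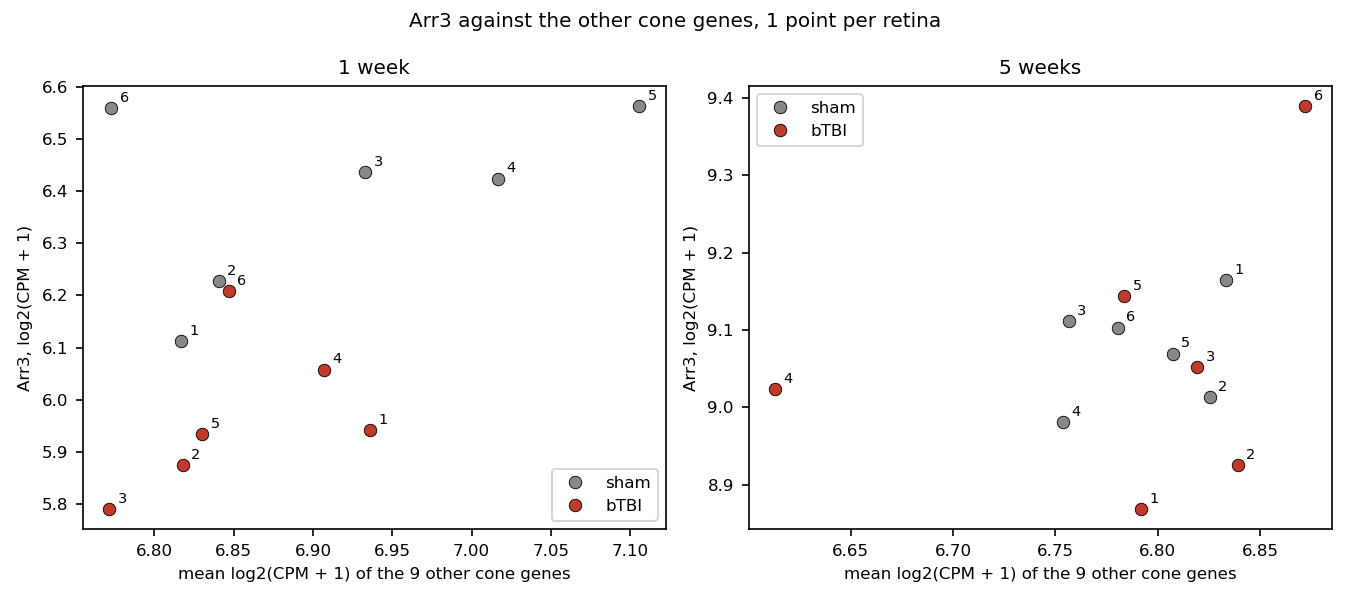
Arr3 (vertical axis) against the mean of the 9 other cone genes (horizontal axis), both in log2(CPM + 1), with 1 point per retina, numbered by replicate, at 1 week (left) and 5 weeks (right). At 1 week 5 of the 6 bTBI retinas lie below all sham retinas on the vertical axis while both groups span the horizontal axis from 6.77, and at 5 weeks the groups are mixed.

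At 5 weeks the list was close to sham. By limma 0 of 10 genes were called at 0.005, where 0.835% of all genes were called, and 0 at 0.05, where 2.05% were. Opn1sw alone had an unadjusted p under 0.05 (10.9% of all genes did), and at 0.005 edgeR (0.798% of all genes) and DESeq2 (1.61% of all genes) also called 0. For 5 of the 10 genes the difference was below 0, as it was for 49.4% of all genes. Means were between 91.4% and 104% of sham, the median log2 difference was 0.0072, beside 0.0012 for all genes, and the intervals reached 0.087 to 0.149 on either side of the estimate. The groups overlapped for all 10 genes, and they were separate in 1.98% of all genes. Gnat2 had 207 to 225 CPM in sham and 186 to 231 CPM in bTBI retinas (difference -0.026, 95% interval -0.114 to 0.061). Pde6c had 122 to 148 and 113 to 154 CPM (0.024, 95% interval -0.096 to 0.143), Pde6h 151 to 160 and 127 to 163 CPM (-0.037, 95% interval -0.131 to 0.058), and Gnb3 436 to 537 and 422 to 542 CPM (0.021, 95% interval -0.095 to 0.138). For Gngt2 the interval was -0.113 to 0.083, for Cnga3 -0.114 to 0.185, for Cngb3 -0.072 to 0.179 and for Opn1mw -0.077 to 0.129. bTBI retina 4 had the lowest value of its group for Opn1sw, Gnat2, Pde6c, Pde6h, Gnb3 and Gngt2, and its Arr3 level was not low.

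The rod counterparts of these genes are the natural comparison, since rods use the same steps with other subunits. At 1 week limma called 0 of 11 rod genes at 0.005 (2.25% of all genes) or at 0.05 (6.08%). Of the 11, 1 had an unadjusted p under 0.05 (17.3% of all genes did). At 0.005 edgeR called 0, where it called 197 of 14922 genes higher and 138 lower. DESeq2 called 1 higher, as it did 365 of 14906 genes. The gene with the unadjusted p under 0.05 was Sag, the rod arrestin, at 115% of sham (difference 0.20, SE 0.068, adjusted p = 0.106 in limma). Gnat1, Pde6a, Pde6b, Pde6g, Gnb1, Gngt1, Cnga1 and Cngb1 had differences between -0.056 and 0.11, and all had an adjusted p of at least 0.630. The estimates for the arrestins of cones and rods thus pointed opposite ways, and the difference between them was not tested. At 5 weeks limma called 0 of 11 at 0.005 (0.835% of all genes) or at 0.05 (2.05%). Of the 11, 3 had an unadjusted p under 0.05 (10.9% of all genes did). At 0.005 edgeR (0.798% of all genes) and DESeq2 (1.61%) also called 0. The differences were 0.020 to 0.11, so 0 of 11 were below 0 (49.4% of all genes were). Pde6a had 0.096 (adjusted p = 0.205 in limma) and Sag 0.044 (adjusted p = 0.717). The mean of the 11 rod genes was 11.71 to 11.795 in sham and 11.804 to 11.844 in bTBI retinas (log2(CPM + 1)), with the groups separate. The mean of the 9 cone genes other than Arr3 minus the mean of the rod genes was -5.00 ± 0.15 in sham and -5.11 ± 0.054 in bTBI retinas at 1 week, and -4.97 ± 0.027 and -5.04 ± 0.097 at 5 weeks (log2(CPM + 1), SD, n = 6 each).

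Of 7 other genes that mark cones outside the cascade, limma called 0 at 0.005 at either timepoint, and so did edgeR and DESeq2. The shares of all genes in limma were 2.25% at 1 week and 0.835% at 5 weeks. At 5 weeks edgeR called 0.798% and DESeq2 1.61%, and at 1 week they called 0.925% and 2.27% lower. At 1 week 2 of the 7 had an unadjusted p under 0.05, both lower, where 17.3% of all genes did in either direction. Over the 7 genes, 5 had a difference below 0 (50.1% of all genes did), with a median of -0.063 and a range of -0.31 to 0.070. Slc24a2, the sodium, calcium and potassium exchanger of cones, which other neurons also express, had 108 to 138 CPM in sham and 79.2 to 111 CPM in bTBI retinas (difference -0.29, SE 0.081, adjusted p = 0.0485). Rxrg, a retinoid receptor of cones, had 9.44 to 12.8 CPM in sham and 6.40 to 9.90 CPM in bTBI retinas (-0.31, SE 0.099, adjusted p = 0.0792). In each gene 5 of 6 bTBI retinas were below all sham retinas, and only Slc24a2 passed 0.05, as 6.08% of all genes did. The cells that the RNA of Rxrg and Slc24a2 came from in whole retina were not tested. At 5 weeks 6 of the 7 genes had a difference below 0 (49.4% of all genes did), with a median of -0.068. The mean of the 7 genes was 5.48 to 5.58 in sham and 5.40 to 5.49 in bTBI retinas (log2(CPM + 1)). Limma called 1 of them lower at 0.05, where 2.05% of all genes were called. It was Rxrg, with 9.04 to 10.4 CPM in sham and 7.08 to 8.58 CPM in bTBI retinas (-0.28, SE 0.071, adjusted p = 0.0431). Its groups were fully separate, as in 1.98% of all genes. The Slc24a2 difference at 5 weeks was -0.077 (adjusted p = 0.632). Thrb, the thyroid hormone receptor that cones need for medium-wavelength opsin, had 0.10 (adjusted p = 0.199) at 5 weeks.

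Genes listed as shared by rods and cones, and the factors that set photoreceptor fate, gave few calls. Over all genes, 17.3% at 1 week and 10.9% at 5 weeks had an unadjusted p under 0.05. At 1 week 2.25% of all genes passed 0.005 and 6.08% passed 0.05 in limma. At 5 weeks 0.835% passed 0.005 and 2.05% passed 0.05, and the groups were separate in 1.98%. Of 18 shared phototransduction genes limma called 0 at 1 week at either threshold, with 2 at an unadjusted p under 0.05 and 0 by edgeR or DESeq2. At 5 weeks 1 of 18 passed 0.05 and none 0.005. It was Gucy2f, a guanylate cyclase that restores cGMP, at 109.5% of sham with separate groups (difference 0.13, SE 0.030, adjusted p = 0.0207). Whether its RNA came from rods or cones was not tested. At 0.005 DESeq2 called 1 of the 18 (1.61% of all genes) and edgeR called 0 (0.798% of all genes). Of 10 photoreceptor transcription factors limma called 0 at either time, with 2 at an unadjusted p under 0.05 at each and 0 by edgeR or DESeq2. Nr2e3, which represses cone genes in rods, had 0.15 (adjusted p = 0.134) at 1 week and Crx 0.073 (adjusted p = 0.348) at 5 weeks. The visual cycle, which renews the chromophore, had 0 of 10 called by all 3 tools at both times, with 2 at an unadjusted p under 0.05 at each, and Rdh10, a retinol dehydrogenase, had -0.33 (adjusted p = 0.120) at 1 week.

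Levels between genes were compared as CPM per kilobase of exon in sham retinas, a scale that counts every annotated exon and so lowers genes with long rarely used exons, such as Pde6h. At 1 week Opn1sw was highest at 184 ± 16.6, followed by Opn1mw at 142 ± 14.2, Gnb3 at 104 ± 21.7 and Gnat2 at 79.4 ± 11.4. Gngt2 (43.8 ± 8.29) and Arr3 (35.3 ± 4.37) were neighbors whose ranges overlapped. Cngb3 (6.38 ± 0.39) and Cnga3 (4.78 ± 0.80) were lowest (SD, n = 6 throughout). At 5 weeks Arr3 was first at 229 ± 10.7, above Gnb3 at 190 ± 13.5 and Opn1sw at 169 ± 5.79 (SD, n = 6).

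The place of Arr3 thus differed between the timepoints more than that of any other cone gene. Its sham mean in CPM was 6.47 times higher at 5 weeks, against 1.83 times for Gnb3 and 1.45 times for Pde6c, and it was lower at 5 weeks for the other 7 genes. The tables were scaled separately and the extraction kits differed, so no test was made. Noncoding RNAs of the nucleus were also higher at 5 weeks. Sham means at 1 and 5 weeks were 64.2 and 457 CPM for Malat1, 28.6 and 1150 CPM for Meg3, and 6.93 and 286 CPM for Firre. Over the 24 retinas, with group means subtracted, Arr3 correlated with the mean of 5 such RNAs at r = 0.332. With that mean as a covariate, an alternative chosen after seeing the data, the Arr3 difference at 1 week was -0.40 (adjusted p = 0.00924, limma). Its part in the 5-week level was not tested.

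Among themselves the cone genes did not vary as a single block. After group means were subtracted, Pearson's r over 24 retinas was 0.842 for Gnat2 with Gnb3 and for Pde6c with Gnb3, 0.742 for Gnat2 with Pde6c and 0.648 for Arr3 with Pde6c. Pde6h and Gngt2, the small subunits, formed another pair at 0.861. Arr3 correlated with Opn1sw at -0.0135 and with Gngt2 at -0.215, and the lowest value was -0.563 for Opn1mw with Cnga3. By timepoint, Arr3 correlated with Opn1sw at 0.373 at 1 week and -0.369 at 5 weeks, and with Opn1mw at -0.135 and 0.686. The partner of Pde6h differed between timepoints. At 1 week it correlated with Gngt2 at 0.93 and with Pde6c at -0.35, and at 5 weeks with Pde6c at 0.88 and with Gngt2 at 0.41 (12 retinas each). These correlations describe the retinas, whose points share library and dissection, and carry no test.

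**Figure D4:**
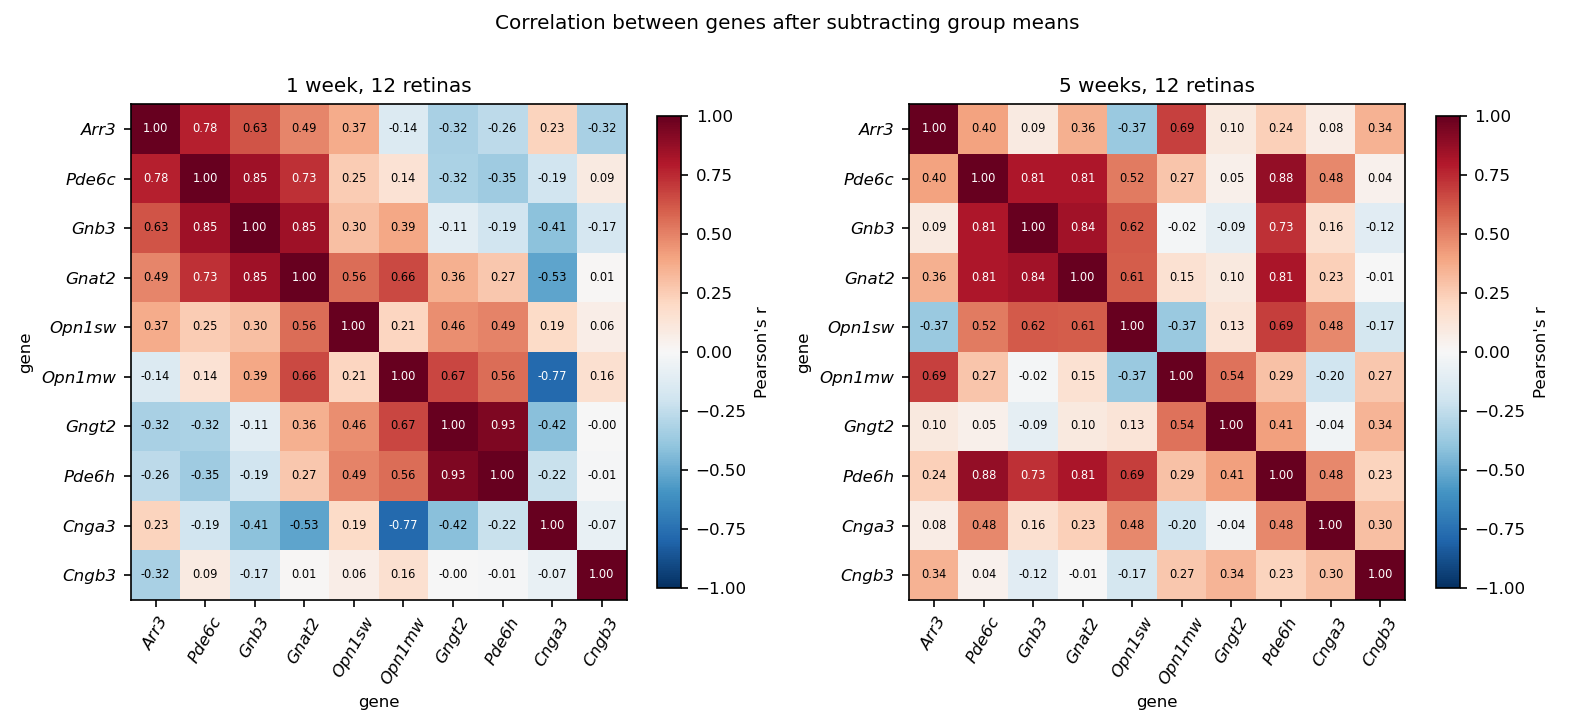
Pearson's r between cone genes after group means were subtracted, at 1 week (left, 12 retinas) and 5 weeks (right, 12 retinas), with color from -1 (blue) to 1 (red). Gnat2, Gnb3 and Pde6c are alike at both times (r of 0.73 to 0.85), while Pde6h goes with Gngt2 at 1 week and with Pde6c at 5 weeks.

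Among 14450 genes, those most like Arr3 over the 24 retinas by the same measure were Bcl2l13 (r = 0.744), U2surp (0.733), 4632404H12Rik (0.730), Stn1 (0.722) and Hnrnpk (0.717). None was a phototransduction gene. The least alike were Git1 (-0.743), Srpr (-0.739) and Washc1 (-0.736).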

How the data were processed

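Stranded polyA libraries of 24 retinas (6 per group) were made with the Illumina TruSeq kit. The authors mapped reads to GRCm38 with STAR (version 020201), counted them per gene with featureCounts and used edgeR, and the strand setting is not given in the sources used here. The deposited signal values hold, in a table per timepoint, read counts scaled by the authors to each retina's normalised sequencing depth (a CPM scale), after removal of rarely detected genes. The values were whole multiples of a step per retina (100% within 0.01 of a step), which gave the read totals and the reads for edgeR and DESeq2, and the depth of each retina follows from them.

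Groups were compared within each table with limma (version 3.58.1, mean-variance trend) on log2(value + 1), with Benjamini-Hochberg adjustment over all genes and calls at 0.005, the study's threshold, and 0.05. A log2 difference on this scale understates the change of low genes. The difference between timepoints was an interaction in a fit of 14455 genes. edgeR (4.0.16), DESeq2 (1.42.0), other scalings and omission of retinas were alternatives. Row identifiers without version matched GENCODE M21 for 16367 of 16387 genes. The members, the 22 gene lists and the tests were chosen with earlier results of these data known. All 10 cone genes were named, with at most 2 genes of smallest p per other list and timepoint, the direct rod counterparts (apart from an item not reported here) and the genes most and least like Arr3. Nuclear RNAs were added after seeing the data. P-values measure the spread between retinas, which the series description gives as separate mice.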

Additional observations from a re-analysis of the deposited data

Results flagged for a closer look

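In each group of 6 retinas the highest and lowest values of the 10 cone genes were compared with their nearest neighbor (Dixon's 95% critical value). Of 40 groups tested, 3 held a retina that stood apart, and chance gives about 2. Opn1mw was 177.8 CPM in bTBI retina 6 at 5 weeks, where the other 5 had 140 to 146 CPM. Pde6h was 127.1 CPM in bTBI retina 4 at 5 weeks, where the other 5 had 150.3 to 163 CPM. Cnga3 was 25.1 CPM in sham retina 6 at 1 week, where the other 5 had 15.8 to 18.5 CPM. No explanation was tested.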

How the results depend on the processing

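Arr3 at 1 week kept its direction under every alternative run. Apart from single omissions, its adjusted p was under 0.005 in 6 of 13 alternatives (range 9.54e-05 to 0.0154), namely scaling to library totals (-0.42, 0.00364), scaling by the rod genes (-0.46, 0.00145), a robust prior (-0.42, 0.00460), the replicate block (-0.42, 0.00272), a single fit of 24 retinas (-0.42, 0.00053) and DESeq2 (-0.43, 9.54e-05). At a threshold of 0.05 it passed at -0.42. Single omissions gave -0.475 to -0.384, and 2 of 12 passed 0.005. The number of cone genes called at 1 week was accordingly 1 under each of these settings and 0 to 1 with single omissions. Replicate numbers did not pair the retinas (r of -0.249 to 0.538 at 1 week and -0.138 to 0.150 at 5 weeks), and with the replicate block the genes called were 293, 134 and 14 for 1 week, 5 weeks and their difference. The labels name no pairing, so the Arr3 value under the replicate block cannot be read as support. The single fit and the interaction take a single spread per gene over both timepoints. The Arr3 SD in log2(CPM + 1) was 0.182 in sham and 0.147 in bTBI retinas at 1 week, and 0.068 and 0.185 at 5 weeks.

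Genes called at 1 week numbered 336, and 685 in a single fit, 704 by DESeq2, 907 at 0.05, 112 without both lens-rich retinas and 189 to 486 with single omissions. At 5 weeks they numbered 133, and 308 with rod scaling, 56 without a trend, 75 in a single fit, 251 by DESeq2, 326 at 0.05, 44 with the nuclear RNA covariate and 88 to 163 with single omissions. For the difference they numbered 15, and 57 by DESeq2, 111 at 0.05 and 9 to 111 with single omissions. The cause was not tested.

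Sign changes occurred only in genes not called. Without both lens-rich retinas, Opn1sw was 0.025, Gnb3 -0.022 and Cngb3 0.018 at 1 week, and the Gnb3 difference between timepoints was 0.043. With rod scaling at 5 weeks, Opn1mw was -0.034, Pde6c -0.036, Gnb3 -0.038, Cnga3 -0.020 and Cngb3 -0.0036. With the nuclear RNA covariate, Arr3 was 0.032, Gnat2 0.064, Pde6h 0.017 and Cngb3 -0.065. Arr3 at 5 weeks was 0.0018 by edgeR and 0.0020 by DESeq2. Single omissions gave -0.040 to 0.023 for Opn1sw and -0.069 to 0.013 for Cngb3 at 1 week, and at 5 weeks -0.071 to 0.033 for Arr3, -0.027 to 0.049 for Opn1mw, -0.048 to 0.014 for Gnat2, -0.011 to 0.078 for Pde6c, -0.059 to 0.013 for Pde6h, -0.018 to 0.075 for Gnb3 and -0.035 to 0.014 for Gngt2. The intervals at 1 week could not exclude small shared differences, and the parts of read depth and of spread between retinas in their width were not tested.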
